A study of Mus musculus with 8 samples.

Results

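Semaphorins, plexins, ephrins, Eph receptors, Slits, Robos, netrins and Unc5 receptors are the guidance molecules first described in growing axons, and they were compared between 4T1-Sca1+ and 4T1-Sca1- mammary carcinoma cells. The members were chosen by symbol, as protein-coding mouse genes of the Sema, Plxn, Epha, Ephb, Efna, Efnb, Slit and Robo families together with Ntn1, Ntn4, Unc5a, Unc5b and Unc5c. This gave 63 genes, 33 of them ligands and 30 receptors, of which 54 were among the 16341 genes of the count table. Expression was high enough for a test in 44 of them (28 ligands and 16 receptors), out of 11717 genes tested in all.

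4T1 is a mouse mammary carcinoma cell line, and SCA1, the product of Ly6a, is the surface marker by which magnetic columns separated the cells. RNA was sequenced from 4 libraries of 4T1-Sca1+ cells and 4 of 4T1-Sca1- cells. Both groups carry a CD45-negative gate in their labels, were given no treatment or engineered allele there, and are named as sorted from parental 4T1, although the staining protocol speaks of tumor. Whether each replicate came from its own sort is not given, so the p-values measure the spread between these libraries, which may be technical. Ly6a stood at 166.7 ± 20.2 normalized reads in 4T1-Sca1+ cells against 1.79 ± 1.73 in the others (SD, n = 4), and total counts ran from 13561804 to 16968215 per library. All 6 epithelial markers were abundant in both groups, with Krt8 and Krt18 higher in 4T1-Sca1+ cells (log2 fold changes 0.31 and 0.38), Cdh1 and Krt7 lower (-0.69 and -0.20), and Epcam and Krt19 not called. Among 10 leukocyte markers, Ptprc, the gene of CD45, did not exceed 4 reads in any library, whereas the 3 that could be tested (Cd68, Csf1r and S100a8) were all higher in 4T1-Sca1+ cells, and the summed level of the 7 counted was 14.5 to 18.2 against 8.26 to 9.999 reads per kilobase, scaled for depth (RPKM). Both testable fibroblast markers of 8 (Col1a1 and Pdgfra) were also higher, with a summed level of the 6 counted of 4.29 to 4.57 against 2.58 to 3.00 RPKM and at most 8 reads of Col1a2 in any library. The single testable endothelial marker, Tie1, was lower, and so was the neural marker Mbp. The part of these cells in the results below was not tested.

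In development, these families steer migrating cells and axons by contact or by diffusible cues. Semaphorins are read by plexins, often with a neuropilin as co-receptor, and plexins act on small GTPases and the actin cytoskeleton. Ephrins sit on the cell surface and bind Eph receptor tyrosine kinases on neighboring cells, so that both cells can be signaled to, while Slits bind Robos and netrins bind DCC, neogenin and UNC5 receptors. In epithelia and carcinomas the same molecules are known for their part in adhesion, boundary formation, invasion and vessel patterning.

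Guidance genes were more often higher than lower in 4T1-Sca1+ cells. Of the 44 tested members, 25 were higher, 10 were lower and 9 did not pass an adjusted p of 0.05 (edgeR's quasi-likelihood test with Benjamini-Hochberg adjustment over all genes tested). Many genes differed between these cells: 61.5% of all genes tested passed, 31.3% as higher and 30.2% as lower. Of the guidance genes 79.5% passed, 56.8% as higher and 22.7% as lower. The median log2 fold change (4T1-Sca1+ over 4T1-Sca1-) was 0.37 over the members and 0.0074 over all genes tested. Among ligands 15 of 28 were higher and 6 lower, and among receptors 10 of 16 were higher and 4 lower, with a median of 0.37 for each; a difference between ligands and receptors was not tested. Summed per length, ligand RNA was 1.38 times and receptor RNA 1.07 times as high in 4T1-Sca1+ cells. These sums carry no GC correction (described below), and whether either ratio holds with it was not tested. The groups were fully separated in normalized counts for 32 of the 44 members, 24 of them higher and 8 lower, against 54.7% of all genes tested.

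Larger changes were mostly upward. With a log2 fold change of at least 0.5 in either direction, 17 members were higher and 4 lower, where 14.2% and 6.26% of all genes tested were. Sema6c, Sema4c, Ntn1, Sema6d, Efna2 and Plxnd1 rose at least 2-fold, as 5.22% of all genes tested did, and Sema3c was the 1 member that fell that far. With the GC correction described below, Efna2 (0.77) and Plxnd1 (0.85) rose less than 2-fold, and Sema6a (-1.03) fell more than 2-fold. At the cut of 0.5, that correction took out Sema3f (0.27), Sema6b (0.23), Sema7a (0.35), Plxnb1 (0.24) and Sema4g (0.52, no longer called). It added Efnb1 (-0.58) and Epha2 (-0.57) to the lower members. Whether a lower bulk level reflects fewer cells that express a gene or less RNA per cell cannot be told apart in such samples.

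**Figure D1:**
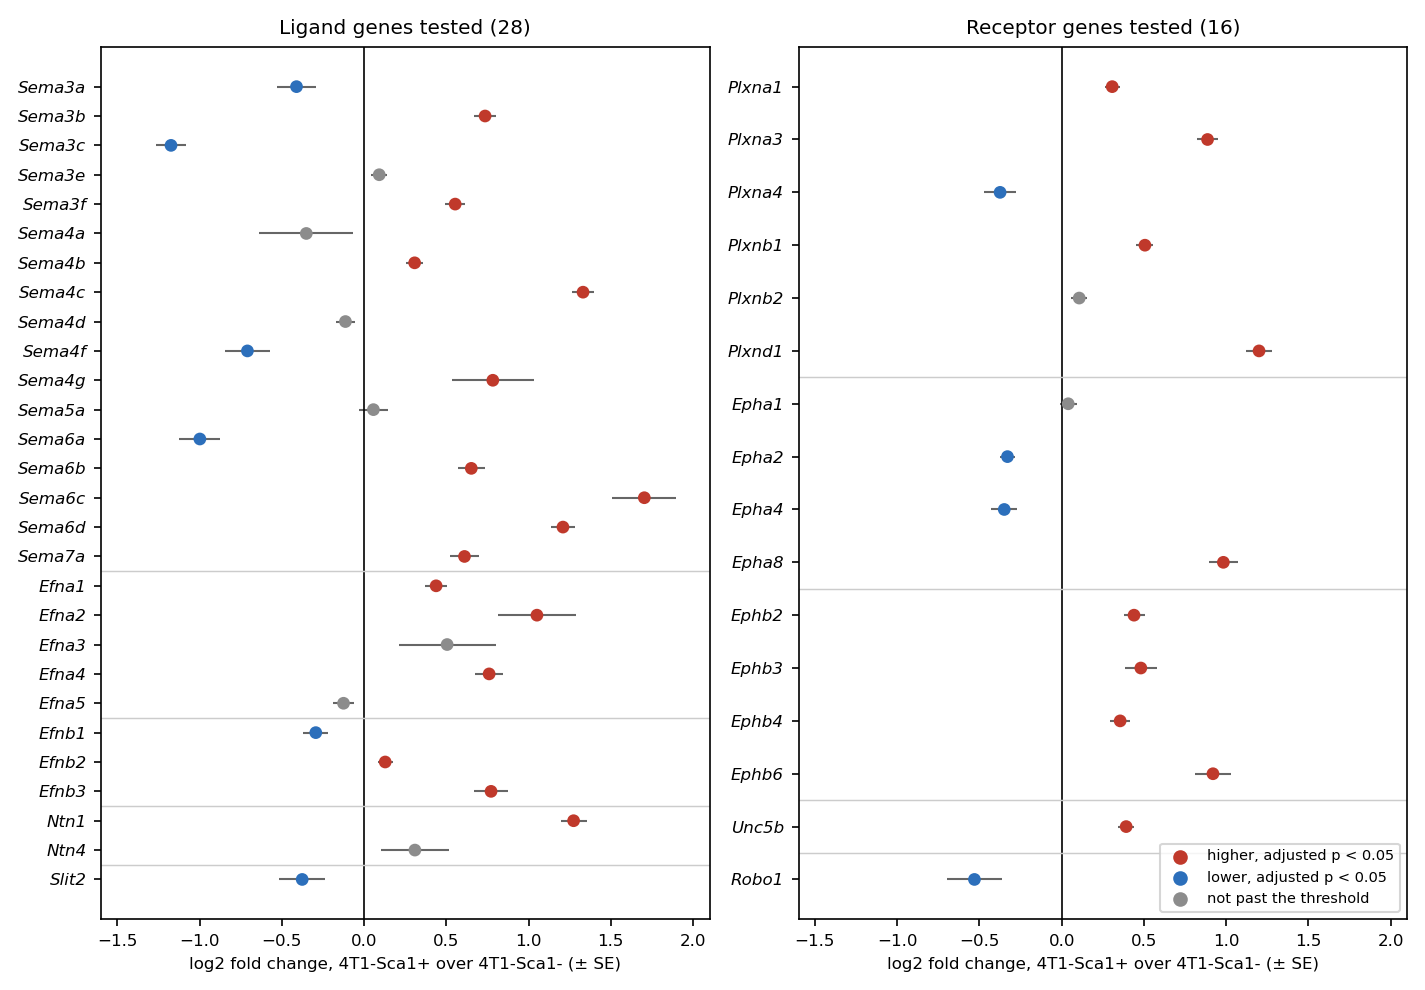
Log2 fold change of the 44 tested guidance genes (x axis, 4T1-Sca1+ over 4T1-Sca1-), with its standard error as bars, for ligands and receptors. Colored points passed an adjusted p of 0.05 (25 to the right of 0 and 10 to the left) and grey points did not.

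Transcript base composition moved with these differences. The transcripts of the members that were higher had a median GC content of 57.6%, against 49.0% in those that were lower and 49.8% in all genes tested. Among all genes with a GC content of 55% or more, 48.4% were higher and 17.7% lower. Of the tested members 29 lay in that range, with 22 higher, 3 lower and 4 not called. From 50 to 55%, 2 of 5 members were higher and 1 lower (all genes 35.25% and 27.64%). From 45 to 50%, 1 of 6 was higher and 4 lower (25.7% and 35.66%). Below 45%, 0 of 4 were higher and 2 lower (17.32% and 38.88%). The surplus of higher over lower members thus lay mostly in the range of 55% or more. The excess of GC-rich over GC-poor transcripts also differed between libraries: it was 0.0433, 0.0462, 0.382 and 0.0997 on the log2 scale in 4T1-Sca1+ replicates 1 to 4, and -0.254, 0.0085, -0.141 and -0.161 in 4T1-Sca1- replicates 1 to 4. 4T1-Sca1+ replicate 3 thus stood apart from its group, and 4T1-Sca1- replicate 2 lay close to the remaining 4T1-Sca1+ libraries. When each library was scaled along its own GC trend, 21 members were higher and 13 lower (ligands 13 and 7, receptors 8 and 6), their median log2 fold change was 0.19, and over all genes 3089 were higher and 4751 lower in place of 3668 and 3538. Without 4T1-Sca1+ replicate 3 the members split 25 higher to 10 lower, and without that library and 4T1-Sca1- replicate 1 together they split 26 to 9. The members' median log2 fold change was 0.32 and 0.27 in turn, below the 0.37 with all libraries, beside 0.0045 and 0.0080 over all genes tested. Whether GC content is a technical or a cellular difference was not tested. GC-corrected values of members are therefore given below where they change a call or move a value by more than 1.5 times. For genes outside the members no GC-corrected values are given, whether or not they moved.

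**Figure D2:**
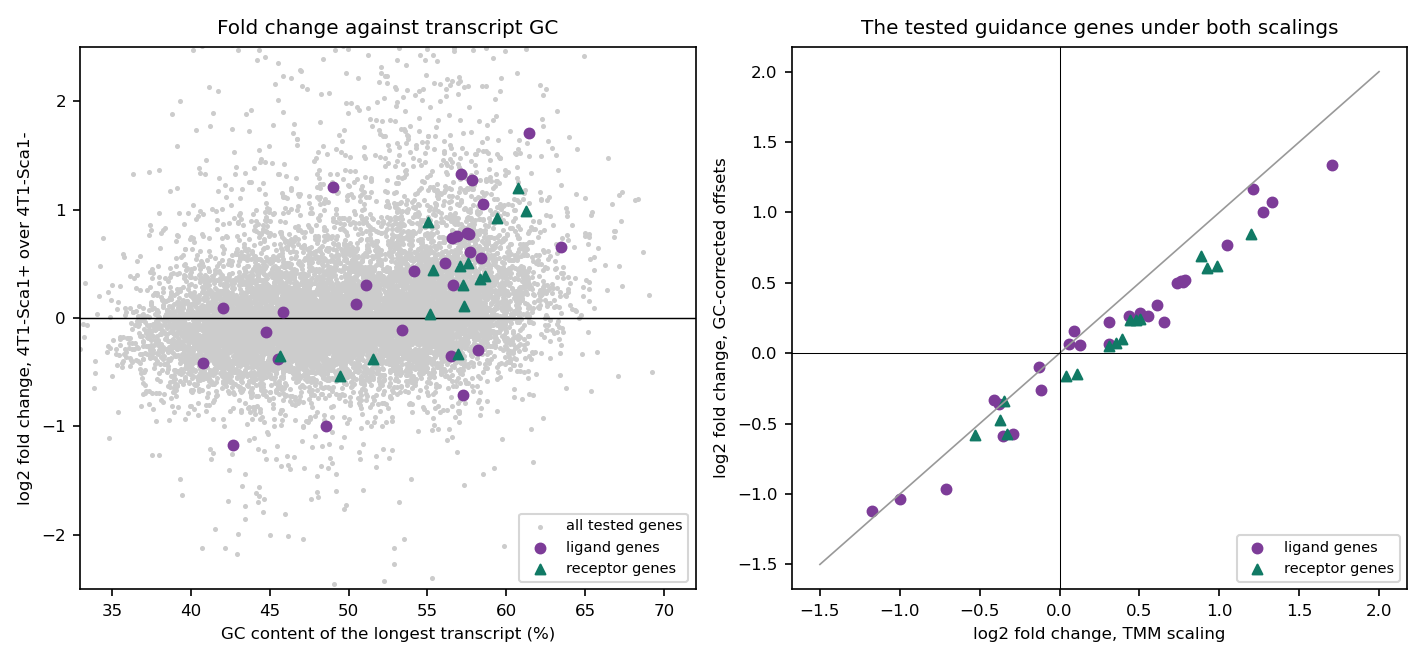
Left, log2 fold change (4T1-Sca1+ over 4T1-Sca1-) against the GC content of the longest transcript in percent, for all genes tested (grey, with genes beyond 2.5 on the log2 scale left outside the axes) and for guidance ligands and receptors. Right, log2 fold changes of the 44 tested members with GC-corrected offsets against those with TMM scaling, with a line of equality below which most of the higher members lie.

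Class 4 semaphorins are membrane-bound, and Sema4c, a ligand of plexin-B2, had the lowest adjusted p of any member. Sema4c (ENSMUSG00000026121; GRCm38 chromosome 1, 36548639 to 36558349, minus strand) had 2049, 2235, 2689 and 2289 normalized reads in 4T1-Sca1+ replicates 1 to 4 and 912.0, 980.5, 866.0 and 953.1 in the 4T1-Sca1- replicates. Every 4T1-Sca1+ library thus lay far above every 4T1-Sca1- library. The log2 fold change was 1.33 (SE 0.069, adjusted p = 3.03e-11). Per length, Sema4c stood at 33.3 ± 3.78 against 13.2 ± 0.688 RPKM (SD, n = 4), and it made up 60 to 63.3% of all class 4 semaphorin RNA in 4T1-Sca1+ libraries and 39.9 to 42.6% in 4T1-Sca1- libraries.

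The other class 4 members did not move together. Sema4g had 40.2, 49.3, 51.9 and 32.4 normalized reads in 4T1-Sca1+ cells against 39.2, 13.3, 21.1 and 26.3. These groups overlapped, since 4T1-Sca1- replicate 1 exceeded 4T1-Sca1+ replicate 4, and although the gene passed with a log2 fold change of 0.78 (SE 0.249, adjusted p = 0.0114), it did not with GC correction (0.52, adjusted p = 0.0558). Sema4f went the other way, with 38.4, 46.3, 49.9 and 49.9 reads in 4T1-Sca1+ cells against 75.4, 76.0, 85.7 and 67.3. All its 4T1-Sca1+ values lay below all 4T1-Sca1- values, and the log2 fold change was -0.71 (SE 0.138, adjusted p = 0.000253). Sema4b rose by 0.31 on the log2 scale (0.069, no longer called, with GC correction). Sema4d, the ligand of plexin-B1, had a log2 fold change of -0.11 and did not pass (adjusted p = 0.102), but did at -0.26 with GC correction. Sema4a did not pass (-0.35, SE 0.285, adjusted p = 0.298, and -0.58 with GC correction).

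Class 6 semaphorins, transmembrane ligands of A-type plexins, split by gene. Sema6c (ENSMUSG00000038777; chromosome 3, 95160457 to 95174024, plus strand) had 42.0, 49.3, 55.9 and 51.6 normalized reads in 4T1-Sca1+ replicates 1 to 4 against 15.3, 12.3, 14.5 and 19.4. The groups were well separated, at the highest fold of the 44 tested members (log2 fold change 1.70, SE 0.195, adjusted p = 7.65e-07), although at 0.55 against 0.17 RPKM the transcript was rare in both. Sema6d (ENSMUSG00000027200; chromosome 2, 124089969 to 124667770, plus strand) had 354.6, 358.0, 379.0 and 388.6 reads against 165.2, 155.0, 168.1 and 157.5. Its libraries were tightly grouped, with a log2 fold change of 1.21 (SE 0.074, adjusted p = 2.59e-10), and GC correction left it at 1.17.

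Sema6b, the most abundant class 6 member per length, had 611.5, 648.9, 794.0 and 694.0 reads in 4T1-Sca1+ cells against 447.9, 490.8, 441.9 and 380.1. The groups were apart (log2 fold change 0.65, SE 0.083, adjusted p = 2.71e-06), and the change was 0.23 with GC correction. Sema6a fell, from 175.7, 182.8, 190.3 and 180.3 reads in 4T1-Sca1- cells to 68.5, 113.4, 101.7 and 79.6 in 4T1-Sca1+ cells. The 4T1-Sca1- libraries were close to each other and all above the more scattered 4T1-Sca1+ libraries (log2 fold change -0.999, SE 0.124, adjusted p = 2.13e-06).

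Class 3 semaphorins are secreted. Sema3f, which signals through neuropilin-2 and plexin-A3, was the most abundant ligand of all the families per length, at 68.5 ± 5.97 against 46.7 ± 3.42 RPKM. It had 4969, 5265, 6087 and 5225 normalized reads in 4T1-Sca1+ replicates 1 to 4 and 3433, 4083, 3583 and 3708.5 in 4T1-Sca1- replicates. The groups did not overlap, and the log2 fold change was 0.55 (SE 0.061, adjusted p = 5.40e-07), or 0.27 with GC correction. Sema3b had 430.5, 430.0, 434.9 and 477.8 reads against 255.9, 287.5, 260.5 and 271.7. Here 3 of the 4T1-Sca1+ libraries were nearly identical and the group lay clear of the other (log2 fold change 0.74, SE 0.068, adjusted p = 6.31e-08).

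Sema3c, a class 3 member that binds both neuropilins, was the member with the deepest fall. Sema3c (ENSMUSG00000028780; chromosome 5, 17574281 to 17730268, plus strand) had 167.3, 165.7, 122.7 and 141.8 reads in 4T1-Sca1+ cells against 345.7, 316.2, 357.3 and 343.6 in 4T1-Sca1- cells. Each 4T1-Sca1+ library had far fewer than the lowest 4T1-Sca1- library (log2 fold change -1.17, SE 0.093, adjusted p = 8.93e-09), and GC correction left it at -1.12. Sema3a, the founding repellent of sensory axons, also fell (-0.41, SE 0.120). Sema3e, the ligand of plexin-D1, was at 999.9 ± 13.5 and 946.3 ± 35.2 reads and did not pass (log2 fold change 0.092, SE 0.049), but did with GC correction (0.16).

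Sema7a, which is anchored to the membrane by a lipid, had 629.7, 622.2, 776.0 and 696.6 reads in 4T1-Sca1+ cells against 370.5, 500.0, 465.3 and 468.0. All 4T1-Sca1+ libraries exceeded all 4T1-Sca1- libraries (log2 fold change 0.61, SE 0.086, adjusted p = 9.08e-06), and the change was 0.35 with GC correction. Sema5a did not pass (0.056, SE 0.091). Summed over the 19 semaphorin genes counted, the level was 166.8 RPKM in 4T1-Sca1+ cells (154.4 to 185.4 over libraries). In 4T1-Sca1- cells it was 111.9 RPKM (106.6 to 118.8). Without GC correction, the family as a whole was thus more abundant in every 4T1-Sca1+ library, and a GC-corrected sum was not computed.

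**Figure D3:**
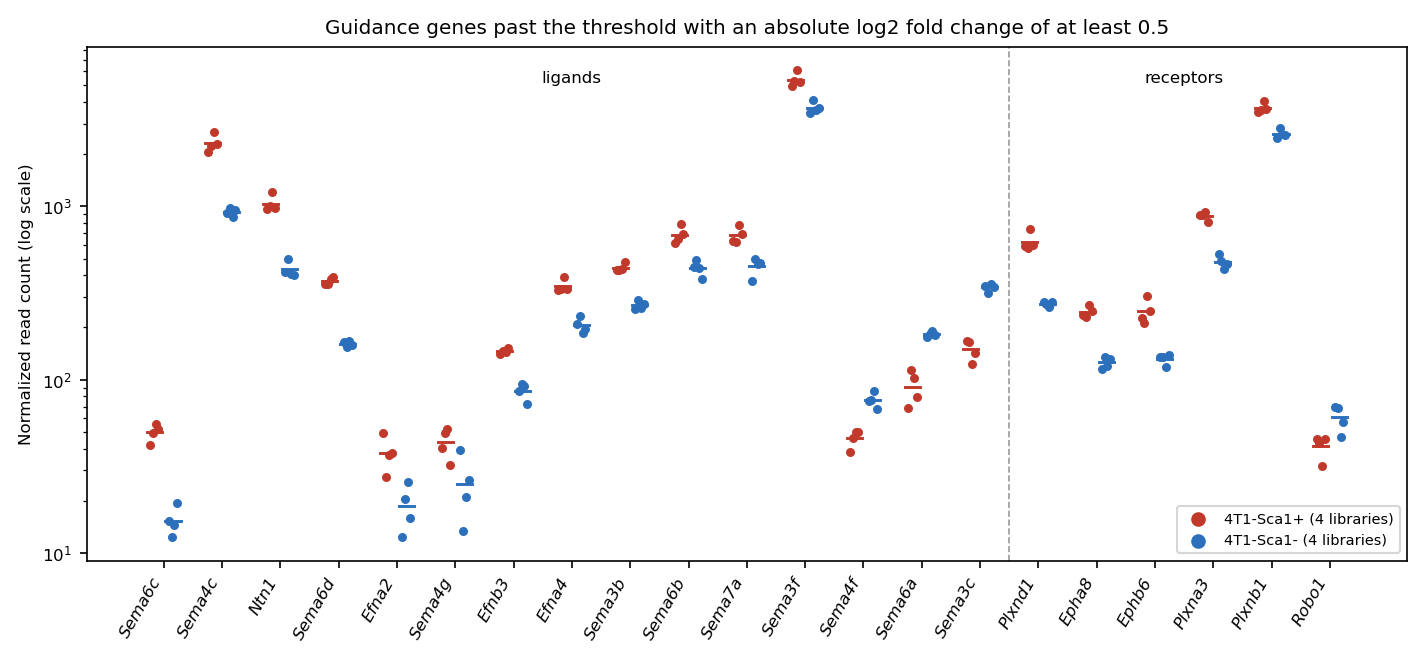
Normalized read count on a log scale in each library for the 21 called members that changed by 0.5 or more on the log2 scale. Points are libraries (4 per group) and short lines the group means, and the groups overlap for Sema4g and for no other gene shown.

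Plexins are the semaphorin receptors, and 4 of the 6 that could be tested were higher, 1 was lower and 1 was not called, where 31.3% of all genes tested were higher and 30.2% lower. With GC correction 3 were higher and 2 lower, where 3089 of all 11717 genes tested were higher and 4751 lower. Plxnd1, the receptor of Sema3E, had 592.3, 576.9, 736.1 and 596.0 normalized reads in 4T1-Sca1+ replicates 1 to 4 against 279.8, 273.1, 263.8 and 279.7. The 4T1-Sca1- libraries were nearly equal and the 4T1-Sca1+ libraries all more than 2-fold above them (ENSMUSG00000030123; chromosome 6, 115954811 to 115995005, minus strand; log2 fold change 1.20, SE 0.078, adjusted p = 6.51e-10). Plxna3 had 888.4, 889.5, 932.6 and 813.9 reads against 533.8, 483.6, 436.4 and 463.4. These groups were also well apart (log2 fold change 0.89, SE 0.066, adjusted p = 3.36e-09). Plxnb1, the receptor of Sema4D, had 3502, 3601, 4047 and 3657 reads against 2488, 2815, 2628 and 2583. Its groups did not overlap either, at a log2 fold change of 0.51 (SE 0.052, adjusted p = 2.16e-07) that was 0.24 with GC correction.

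Plxnb2, a receptor of Sema4C, was the most abundant plexin, at 95.1 ± 4.54 against 88.3 ± 4.75 RPKM. It had 11248, 10992, 11763 and 10436 reads in 4T1-Sca1+ cells against 10004, 11258, 10071 and 10302. The groups overlapped and the gene was not called (log2 fold change 0.11, SE 0.048, adjusted p = 0.0616), and with GC correction it was called in the opposite direction (-0.15). Plxna1 was higher by 0.31 (0.053, no longer called, with GC correction), and Plxna4 was lower (-0.37, SE 0.099). Plxnc1, the receptor of Sema7A, fell under the filter with 28 reads in all 4T1-Sca1+ libraries together against 4 in the 4T1-Sca1- libraries, and it passed when no filter was used (adjusted p = 0.00191). Plxnb3 had 12 and 2 reads (adjusted p = 0.0550 without the filter) and Plxna2 had 2 and 0.

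Ephrin-A genes, whose products are held by a lipid anchor, were higher or not called. Efna2 had 49.4, 27.6, 36.9 and 37.6 normalized reads in 4T1-Sca1+ replicates 1 to 4 against 12.4, 20.5, 25.6 and 16 reads. The lowest 4T1-Sca1+ library was only just above the highest 4T1-Sca1- library (ENSMUSG00000003070; chromosome 10, 80179482 to 80190010, plus strand; log2 fold change 1.05, SE 0.239, adjusted p = 0.000992). Efna4 had 328.1, 332.3, 391.0 and 335.2 reads against 208.2, 234.1, 185.9 and 195.2. There was a wide gap between its groups (log2 fold change 0.76, SE 0.085, adjusted p = 6.08e-07). Efna1, the most abundant ephrin-A and a ligand of EphA2, had 559.4, 537.4, 614.4 and 623.1 reads against 404.0, 457.9, 449.7 and 429.2. Every 4T1-Sca1+ library was above the 4T1-Sca1- libraries (log2 fold change 0.44, SE 0.066, adjusted p = 1.91e-05; 0.27 with GC correction). Efna3 (0.50, SE 0.295, and 0.28 with GC correction) and Efna5 (-0.13, SE 0.062) did not pass.

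Ephrin-B genes, which encode transmembrane ligands, were mixed. Efnb3 had 139.8, 146.9, 144.6 and 153.2 reads in 4T1-Sca1+ cells against 86.0, 94.5, 92.4 and 71.9. The groups were clearly apart (log2 fold change 0.77, SE 0.105, adjusted p = 5.91e-06), with 0.51 after GC correction. Efnb2, the ligand of EphB4, was the most abundant ephrin-B, with 2192, 2207, 2044 and 2079 reads against 2006, 1986, 1931 and 1944. The groups were separate by a small margin, and the log2 fold change of 0.13 (SE 0.045, adjusted p = 0.0193) was no longer called with GC correction (0.059), nor without any 1 of 4T1-Sca1+ replicates 1 and 2 and 4T1-Sca1- replicates 3 and 4 (0.11 to 0.12). Efnb1 fell (-0.29, SE 0.076, adjusted p = 0.00286, and -0.58 with GC correction), although 4T1-Sca1+ replicate 3, with 783.0 reads, overlapped the 4T1-Sca1- libraries.

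Of the Eph receptors, all 4 tested EphB genes were higher. Of 4 tested EphA genes 1 was higher, 2 were lower and 1 was not called. Over all genes tested, 31.3% were higher and 30.2% lower. With GC correction 3 EphB genes were higher, and 1 EphA gene was higher and 3 were lower. In that fit 3089 of all 11717 genes tested were higher and 4751 lower. A difference between the classes was not tested. Epha2, the most abundant guidance gene of all per length and a kinase common in epithelial tumors, had 8350, 8350, 8341 and 7675 normalized reads in 4T1-Sca1+ replicates 1 to 4 against 10138, 10737, 10538 and 10057. Every 4T1-Sca1+ library was below every 4T1-Sca1- library (ENSMUSG00000006445; chromosome 4, 141301240 to 141329384, plus strand; log2 fold change -0.33, SE 0.043, adjusted p = 3.94e-06; -0.57 with GC correction). Its share of all Eph receptor RNA, per length, was 55.1 to 59.3% in 4T1-Sca1+ libraries and 66.6 to 68.9% in 4T1-Sca1- libraries. Epha4 also fell (-0.35, SE 0.078). Epha1 did not pass (0.040, SE 0.052) but was lower with GC correction (-0.16, adjusted p = 0.00264), and 236 of its exon bases, 6.01%, overlap Zyx on the opposite strand, so that reads of both cannot be told apart there.

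Epha8, by contrast, had 236.7, 228.8, 270.3 and 248.6 reads in 4T1-Sca1+ cells against 115.6, 135.5, 120.2 and 131.3. The level was close to 2-fold higher with no overlap (log2 fold change 0.98, SE 0.089, adjusted p = 4.90e-08), and 0.62 with GC correction. Ephb6, a member of the family without kinase activity, had 227.6, 213.0, 305.2 and 247.7 reads against 135.6, 135.5, 118.0 and 139.3. The 4T1-Sca1+ libraries were the more scattered but all higher (log2 fold change 0.92, SE 0.110, adjusted p = 1.27e-06; 0.61 with GC correction). Ephb4, the receptor of ephrin-B2 and the most abundant EphB, had 3388, 3313, 4095 and 3439 reads against 2723, 3043, 2717 and 2736. The groups did not overlap (log2 fold change 0.36, SE 0.061, adjusted p = 7.46e-05), but the gene was no longer called with GC correction (0.069). Ephb3 (0.48, SE 0.097) and Ephb2 (0.44, SE 0.064) were higher, at 0.23 and 0.24 with GC correction. Summed per length without GC correction, EphB RNA was 61.8 against 46.8 RPKM and EphA RNA 139.9 against 167.9 RPKM. Ephb4 made up 81.8 to 85.0% of the EphB sum and Epha2 82.1 to 87.4% of the EphA sum.

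Ntn1 encodes netrin-1, a secreted relative of laminin that attracts or repels according to the receptor. Ntn1 (ENSMUSG00000020902; chromosome 11, 68209364 to 68400823, minus strand) had 959.7, 1003, 1205 and 983.7 normalized reads in 4T1-Sca1+ replicates 1 to 4 against 417.3, 500.0, 409.6 and 401.8. All 4T1-Sca1+ libraries were well above the 4T1-Sca1- libraries (log2 fold change 1.27, SE 0.079, adjusted p = 3.45e-10), and the change was 1.00 with GC correction. Ntn4 was rare and not called (0.31, SE 0.206). Unc5b, a netrin-1 receptor and after Epha2 and Plxnb2 the most abundant receptor here, had 5851, 5724.5, 6402 and 5912 reads against 4376, 4922, 4479 and 4586. The groups did not overlap (log2 fold change 0.39, SE 0.048, adjusted p = 1.75e-06), and with GC correction the change was 0.10.

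Slit and Robo genes were weakly expressed. Slit2 had 74.9, 75.9, 53.9 and 83.1 normalized reads in 4T1-Sca1+ cells against 106.0, 88.3, 82.4 and 101.6, which is 0.19 against 0.24 RPKM. The groups overlapped in 1 library each, and the fall (log2 fold change -0.38, SE 0.139, adjusted p = 0.0258) was not called without 4T1-Sca1+ replicate 3 (-0.27), without 4T1-Sca1- replicate 1 (-0.32) or without 4T1-Sca1- replicate 4 (-0.35). Robo1, its receptor, had 45.7, 43.4, 31.9 and 45.5 reads against 69.7, 68.8, 46.8 and 57.1. The groups were separated by about 1 read (log2 fold change -0.53, SE 0.167, adjusted p = 0.0107), and the call was lost without 4T1-Sca1+ replicate 3 and 4T1-Sca1- replicate 1 together (-0.35, adjusted p = 0.0974).

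The members that could not be tested had few reads. Besides the 3 plexins above, the filter on low counts took out Slit1, Sema3d, Sema3g, Robo2, Robo3, Robo4 and Unc5a, none with more than 3 reads in any library. Not among the genes counted were Epha3, Epha5, Epha6, Epha7, Epha10, Ephb1, Sema5b, Slit3 and Unc5c.

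**Figure D4:**
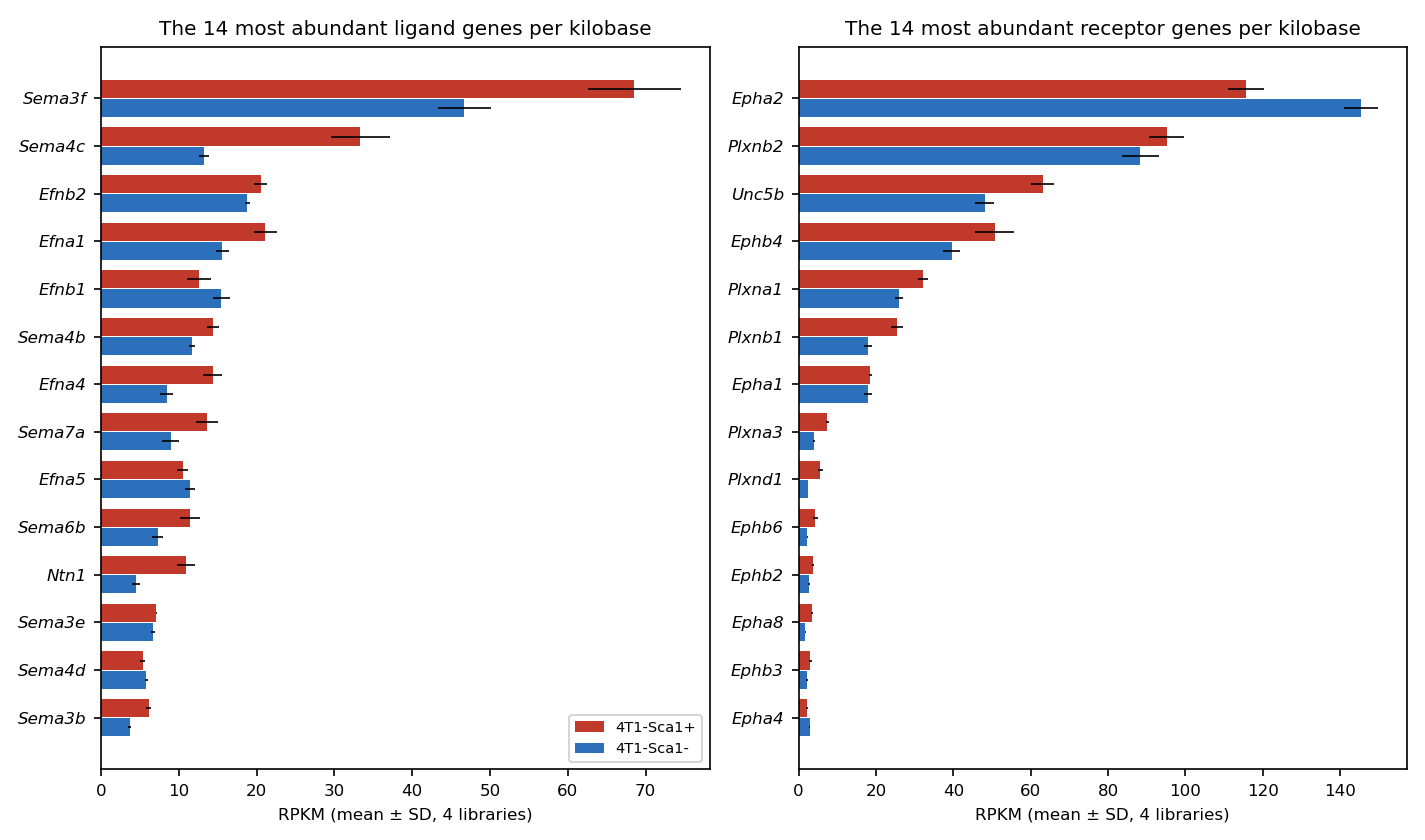
Mean level per kilobase (RPKM, linear axis from 0) of the 14 most abundant ligand genes (left) and receptor genes (right), with the SD over 4 libraries per group as bars. Sema3f leads the ligands at 68.5 against 46.7 RPKM, and Epha2 leads the receptors as 1 of the few genes with the longer bar in 4T1-Sca1- cells.

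Set beside their usual receptors, the ligands that rose did not all have a receptor that rose. Both sides were higher for Ntn1 and Unc5b (log2 fold changes 1.27 and 0.39), Sema3f and Plxna3 (0.55 and 0.89), Sema6d and Plxna1 (1.21 and 0.31), Sema6c and Plxna1 (1.70 and 0.31), and Efnb2 and Ephb4 (0.13 and 0.36), of which Plxna1, Efnb2 and Ephb4 were no longer called with GC correction. Both sides were lower for Sema6a and Plxna4 (-0.999 and -0.37) and for Slit2 and Robo1. The sides had opposite calls for Efna1 and Epha2 (0.44 and -0.33), Efnb1 and Ephb2 (-0.29 and 0.44), Ntn1 and its receptor gene Neo1 (1.27 and -0.24), and Sema6b and Plxna4 (0.65 and -0.37). For Sema4c and Plxnb2 the ligand alone was called, as for Sema3f and Sema3c beside the co-receptor genes Nrp2 and Nrp1. For Sema3e and Plxnd1 and for Sema4d and Plxnb1 the receptor alone was called. With GC correction Plxnb2 (-0.15) and Sema4d (-0.26) were called lower and Sema3e (0.16) higher.

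The upstream sequence of several of the members that rose at least 2-fold is shown. Each window holds the 250 bases before an annotated start (RefSeq, GRCm38.p6), 5′ to 3′ on the strand of the gene, with the GC box GGGCGG in capitals where it lies on that strand. The windows are chr6:115995006-115995255 (minus) for Plxnd1, chr2:124089719-124089968 (plus) for Sema6d, chr3:95160170-95160419 (plus) for Sema6c and chr10:80179232-80179481 (plus) for Efna2. The Sema6c and Sema6d windows precede the first of 2 listed starts. Ntn1 had no listed window, and those of Sema4c overlap annotated exons. The window of Sema3c, the member that fell at least 2-fold, also lies in annotated exons and is not shown. It holds the GC box too, at a GC content of 78.4%.
Plxnd1: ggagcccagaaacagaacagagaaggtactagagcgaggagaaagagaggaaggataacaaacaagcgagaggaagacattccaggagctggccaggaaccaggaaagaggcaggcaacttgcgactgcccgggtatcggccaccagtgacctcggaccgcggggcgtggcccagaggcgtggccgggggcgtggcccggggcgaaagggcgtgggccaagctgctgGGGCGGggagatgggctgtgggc
Sema6d: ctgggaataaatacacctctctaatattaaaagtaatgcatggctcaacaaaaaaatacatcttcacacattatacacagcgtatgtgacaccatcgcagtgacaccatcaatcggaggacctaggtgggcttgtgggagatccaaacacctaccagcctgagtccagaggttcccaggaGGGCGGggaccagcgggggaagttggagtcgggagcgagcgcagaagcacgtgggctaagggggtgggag
Sema6c: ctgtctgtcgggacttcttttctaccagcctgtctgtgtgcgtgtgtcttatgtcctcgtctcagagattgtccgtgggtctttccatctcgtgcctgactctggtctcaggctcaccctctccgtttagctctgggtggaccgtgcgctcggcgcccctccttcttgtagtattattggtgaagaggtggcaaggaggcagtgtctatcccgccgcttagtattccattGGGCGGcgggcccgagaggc
Efna2: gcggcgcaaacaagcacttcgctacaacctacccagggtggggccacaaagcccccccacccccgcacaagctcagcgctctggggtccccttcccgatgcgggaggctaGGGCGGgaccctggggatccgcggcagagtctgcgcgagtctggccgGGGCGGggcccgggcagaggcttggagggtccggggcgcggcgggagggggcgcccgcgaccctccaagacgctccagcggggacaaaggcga
These 4 windows hold the GC box, whereas those before the second starts of Sema6c and Sema6d do not, and the Efna2 window has the highest GC content of them, at 73.6% (Plxnd1 64.8%, Sema6c 57.6%, Sema6d 52.4%). Searched on both strands, GGGCGG was found in 32.7% of all 32851 listed promoter windows. It was in 22 of 26 windows of members that were higher, 4 of 8 windows of members that were lower and 13 of 16 windows of members that were not called, which cover the 37 tested members with a listed window. These member windows had a median GC content of 65.8%, 58.0% and 61.6% in turn, against 52.4% over all windows. Members that were not called thus held the box at much the same share as those that were higher.

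Of the co-receptors and other guidance receptors and ligands outside the families, 11 of 21 could be tested. Of these 5 were higher, 2 lower and 4 not called, where 31.3% of all genes tested were higher and 30.2% lower. Gpc1, a glypican that binds Slits, rose to 11055 ± 1069 from 5054 ± 281 normalized reads (log2 fold change 1.14, SE 0.059). Ntng2, a membrane-anchored netrin, rose by 1.09 and Rgma, a ligand of neogenin, by 0.85, while Flrt3, a ligand of Unc5 receptors, fell by 0.59 on the log2 scale. The neuropilins, co-receptors of class 3 semaphorins, were not called (Nrp1 -0.10, Nrp2 0.089). The netrin receptor neogenin, Neo1, was lower (-0.24, SE 0.044), and Dcc had at most 1 read in any library.

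Genes that act below the receptors were counted in the same fit. Over all genes tested, 31.3% were higher and 30.2% lower. For Eph signaling, 14 of 24 tested genes were higher and 2 lower, among them the exchange factor Arhgef19 (log2 fold change 1.10, SE 0.088), the Rac GTPase-activating protein Chn2 (1.43, SE 0.205) and the adaptor Nck2 (0.54, SE 0.057). For plexin signaling, 5 of 23 were higher, 5 lower and 13 not called, and the small GTPase Rap1b fell by 0.60 (SE 0.055). For Slit and netrin signaling, 5 of 16 were higher and 6 lower, with Srgap3, a GTPase-activating protein that binds Robo1, at 0.88 (SE 0.055) and the kinase Dapk1, which acts downstream of UNC5 receptors, at -0.58 (SE 0.073). Of 13 tested genes of shedding and processing 3 were higher and 5 lower. Adam12 fell from 901.6 ± 44.8 to 270.9 ± 18.6 normalized reads (log2 fold change -1.72, SE 0.065), and the proprotein convertase Pcsk6 rose by 0.56 (SE 0.092). The median log2 fold changes of these lists were 0.22 for the co-receptors, 0.16 for Eph signaling and 0.037 for plexin signaling. They were -0.028 for Slit and netrin signaling and -0.016 for shedding and processing, beside 0.0074 for all genes tested.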

How the data were processed

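RNA was sequenced from 4 4T1-Sca1+ and 4 4T1-Sca1- libraries made with a TruSeq v2 kit, which does not mark strand. The submitters' processing notes name cutadapt 1.16, STAR 2.5.3a and GRCm38/mm10, and the counting tool, annotation and use of strand are not given in the sources used here. The authors deposited raw counts for 16341 genes and a normalized signal table of 15372 genes, whose deposited signal equalled the counts divided by DESeq2 size factors (largest relative difference 5e-15). Printed normalized read counts are on that scale. RPKM were computed here from TMM-scaled counts and GENCODE M21 exon lengths (139 genes did not match), and GC content is that of the longest transcript.

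Counts were tested with edgeR 4.0.16 (R 4.3.3) using filterByExpr, TMM, glmQLFit and glmQLFTest, two-sided, with no covariate and Benjamini-Hochberg adjustment over 11717 genes. An adjusted p under 0.05 was called. Each SE is the absolute log2 fold change over the square root of F. At most 3 reads per library was taken as the floor. The SE reflects the spread between these libraries, which may be technical. Common biological variation was 0.0541. No pair of libraries agreed within sampling noise (chi-square per degree of freedom 1.92 to 10.1 within groups). The scripts were tested on simulated data.

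Values per library are given for called members that changed by 0.5 or more on the log2 scale and for the most abundant ligand and receptor of each family; other genes of the fixed lists are named at the same size, at most 12, and a few below it (Nrp1, Nrp2, Neo1, Dcc) were added after their values were seen. Members and lists were chosen with earlier results of these data known. Alternatives were other scalings and filters, DESeq2 1.42.0, limma 3.58.1 with and without voom, a replicate block, stricter thresholds and leaving out each library. Leaving out 4T1-Sca1+ replicate 3 and 4T1-Sca1- replicate 1 together was chosen after seeing the data.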

Additional observations from a re-analysis of the deposited data

Results flagged for a closer look

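In 10 of 88 groups of 4 values (44 members in each group of cells), 1 library lay far from the other 3, by a gap past the critical value of Dixon's test, where chance alone gives about 4.4. Of these, 5 were 4T1-Sca1+ replicate 3, the library with the strongest GC trend. Its normalized read count was above the other 4T1-Sca1+ libraries for Efna4 (391.0 against 328.1 to 335.2), Efnb1 (783.0 against 605.5 to 633.6), Ephb4 (4095 against 3313 to 3439) and Plxnd1 (736.1 against 576.9 to 596.0), and below them for Robo1 (31.9 against 43.4 to 45.7). 4T1-Sca1+ replicate 4 was high for Sema3b (477.8 against 430.0 to 434.9) and low for Epha2 (7675 against 8341 to 8350). Among 4T1-Sca1- libraries, replicate 2 was high for Ntn1 (500.0 against 401.8 to 417.3) and Ephb4 (3043 against 2717 to 2736), and replicate 1 for Sema3e (998.9 against 926.9 to 932.3). What sets these libraries apart was not tested.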

How the results depend on the processing

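Of the 25 members that were higher, 20 kept their call under all 19 alternatives that did not ask for a minimum fold or a stricter p, and so did 8 of the 10 that were lower. Calls were lost for Efnb2, Ephb4, Plxna1, Sema4b and Sema4g with GC-corrected offsets, and for Slit2 and Robo1 as given above. Plxnb2 (-0.15) and Epha1 (-0.16) changed direction with GC-corrected offsets (adjusted p = 0.00088 and 0.00264); the cause was not tested. Asking also for a change of 1 or more on the log2 scale left 6 members higher and 1 lower, with 5 ligands higher and 1 lower and 1 receptor higher and 0 lower. Settings other than that one gave 21 to 27 members higher and 8 to 13 lower, with Sema3e, Sema4d, Plxnb2 and Efna5 gaining calls in some. Leaving out each library in turn gave 24 to 26 members higher and 9 to 11 lower. Replicate numbers did not pair the libraries (correlations of deviations -0.15 to 0.0957), and the fit with the replicate block gave 25 higher and 10 lower, changing no call. Plxnc1, Plxnb3 and the other members under the filter had at most 11 reads in a library, and their values rest on few reads.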
